A study of Homo sapiens with 8 samples.

Results

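The genes described here are 8 regulators and surface components of epithelial cells: the transcription factors SPDEF, FOXQ1 and ELF3, the claudins CLDN1, CLDN4 and CLDN7, the adhesion receptor gene CDH1 and the mucin gene MUC1. They were chosen by name, as epithelial regulator and junction genes, with earlier results of these data known. All 8 were found among the 19892 genes of the deposited table. The cells were MDA-MB-231, an established human triple-negative breast cancer line, and carried either the control siRNA (NC-ADAR) or the siRNA against ADAR1 (Si-ADAR), the enzyme that turns adenosine into inosine in double-stranded RNA. Each condition was sequenced as longer RNA fragments (Input, read here as RNA level) and as ribosome footprints (Ribo), with 2 libraries in each of the 4 groups. The labels do not say that the 2 replicates of a group were separate cultures. Every p-value below sets the change after ADAR1 siRNA against the spread of libraries within a group, and that spread may be technical. The sources used here name no siRNA sequence, dose or time.

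Claudins are membrane proteins that seal the space between neighbouring epithelial cells at tight junctions, and different members make that seal tighter or leakier. CDH1 encodes E-cadherin, which joins cells at adherens junctions, and MUC1 encodes a heavily glycosylated protein of the apical surface. SPDEF and ELF3 are ETS-family transcription factors of glandular and lining epithelia, and FOXQ1 is a forkhead factor. SNAI2, ZEB1 and related factors are known as repressors of such genes, and MDA-MB-231 is known as a line of mesenchymal character with little E-cadherin.

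The upstream sequences of the 4 genes whose RNA differed most between the siRNAs are given first. Of these, 3 stood lower and CLDN1 stood higher after ADAR1 siRNA. Each is the 250 bases before the annotated gene start from the RefSeq promoter table (GRCh38.p14), 5′ to 3′ on the gene's own strand, and ends at the base before the start. Capitals mark matches, on either strand, to AGGAAG, which holds the GGAA core that ETS factors bind, or to the GC box GGGCGG, which is CCGCCC on the other strand.
SPDEF, chr6:34556330-34556579, minus strand: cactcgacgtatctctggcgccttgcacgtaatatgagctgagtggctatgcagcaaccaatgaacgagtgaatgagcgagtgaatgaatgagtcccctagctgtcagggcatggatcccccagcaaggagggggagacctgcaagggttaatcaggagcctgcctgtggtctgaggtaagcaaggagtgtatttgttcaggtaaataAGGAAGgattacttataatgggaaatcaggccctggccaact
FOXQ1, chr6:1311848-1312097, plus strand: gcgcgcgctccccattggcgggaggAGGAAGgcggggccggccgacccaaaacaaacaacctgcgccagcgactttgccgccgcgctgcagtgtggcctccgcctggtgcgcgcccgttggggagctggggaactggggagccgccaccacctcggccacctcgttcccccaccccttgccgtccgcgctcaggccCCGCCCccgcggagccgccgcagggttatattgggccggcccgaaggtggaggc
CLDN4, chr7:73830746-73830995, plus strand: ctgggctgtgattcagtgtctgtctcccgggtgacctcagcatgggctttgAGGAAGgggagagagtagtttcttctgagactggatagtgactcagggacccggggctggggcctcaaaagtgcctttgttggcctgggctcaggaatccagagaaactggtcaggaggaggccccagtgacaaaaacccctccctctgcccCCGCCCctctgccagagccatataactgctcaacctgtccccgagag
CLDN1, chr3:190322447-190322696, minus strand: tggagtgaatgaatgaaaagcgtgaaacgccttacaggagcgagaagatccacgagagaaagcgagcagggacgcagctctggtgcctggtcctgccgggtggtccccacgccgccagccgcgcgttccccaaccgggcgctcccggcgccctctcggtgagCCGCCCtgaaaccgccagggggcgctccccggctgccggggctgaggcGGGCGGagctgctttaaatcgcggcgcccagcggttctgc
Of the 7 genes with a window (CDH1 was not analysed here), 5 held AGGAAG (SPDEF, FOXQ1, CLDN4, CLDN7 and MUC1) and CLDN1 and ELF3 did not. It is a common match, held by 28.7% of 35116 promoter windows of this length. GC boxes, held by 42.6% of windows, were also found in 5 of the 7 (FOXQ1, CLDN1, CLDN4, CLDN7 and MUC1). FOXQ1 and CLDN1 start in CpG-rich sequence, with 29 and 28 CpG dinucleotides, whereas SPDEF has 6 and CLDN4 has 4, against a median of 11. CLDN7, ELF3 and MUC1 held, on either strand, the E-box CAGGTG that SNAI and ZEB factors recognise, which 17.5% of windows hold. CCGGAA, a second ETS match that can overlap AGGAAG, was found in CLDN7 and is in 14.5% of windows. The forkhead match TAAACA was in none of the 7 and in 11% of windows, and TATAAA, the core promoter element, was in ELF3 and MUC1 and in 10.7% of windows. CLDN7 and MUC1 each have 2 windows, and those of MUC1 overlap. A gene was counted where either window held the match, whereas the shares are per window. All CLDN7 matches lay in its window at 7262479 to 7262728, inside the annotated gene. The CLDN7 window before the gene start, at 7263214 to 7263463, held none of the matches searched. A match is a string of letters and was not tested as a binding site, and no relation of matches to the RNA changes was tested.

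The Input libraries summed to between 15732757 and 17153716 estimated counts, and the Ribo-seq libraries to between 10492223 and 14875465. ADAR itself stood at 106.2 and 110.2 TPM in control Input and at 14.8 and 30.6 TPM after ADAR1 siRNA, and at 19.1 and 20.3 against 1.55 and 8.41 TPM in Ribo-seq, where TPM is a level scaled for transcript length and library size. Its log2 fold change was -2.26 ± 0.32 (SE) in Input, where the edgeR adjusted p of 0.0527 missed the threshold, and -2.04 ± 0.47 in Ribo-seq (edgeR adjusted p = 0.0485). The 2 ADAR1 siRNA Input libraries lay further apart than the control pair (SD of the log2 difference per gene 0.263 against 0.113), as did the Ribo-seq pairs (0.356 against 0.238). The cells carried the mesenchymal genes VIM (4465 TPM in control Input) and CD44 (643.3 TPM), with 13 of 16 such markers at 1 TPM or more, beside the simple-epithelium keratins KRT8 (713.6 TPM) and KRT18 (616.6 TPM). The hormone receptor genes ESR1 (0.0815 TPM) and PGR (0.0445 TPM) were near 0, and ERBB2 stood at 33.3 TPM. The leukocyte gene PTPRC was near 0 (0.219 TPM), and 6 of 10 immune, 4 of 7 endothelial and 4 of 8 fibroblast markers stayed under 1 TPM in every library. Immune markers summed to 235.8 to 236.1 TPM in control Input and 181.2 to 186.1 after ADAR1 siRNA, of which the lysosomal gene CD68 made 231.995 TPM on average in control. Endothelial markers summed to 274.8 to 278.1 against 188.1 to 210.4 TPM, of which the adhesion gene ESAM made 268.1 TPM in control, and fibroblast markers to 7.79 to 9.43 against 11.5 to 12.5 TPM. Mesenchymal genes had estimates above 0 for 12 of 15 tested in RNA (median log2 fold change 0.16, 3 higher and 1 lower at an unadjusted p under 0.05, 0 passed in edgeR). In footprints 12 of 15 were above 0 as well (median 0.37, 7 higher and 1 lower at an unadjusted p under 0.05), and 1 passed, the collagen gene COL5A1. Over all genes tested, 6404 of 12644 were above 0 in RNA and 6527 of 12000 in footprints. At an unadjusted p under 0.05, 11.8% of all genes were higher and 13.5% lower in RNA, against 12.6% and 11.3% in footprints. In edgeR 0.253% of all genes passed in RNA and 3.54% in footprints. The part of these marker genes in the results below was not tested.

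In control Input, CLDN4 was highest at 61.6 ± 1.32 TPM, followed by SPDEF at 53.2 ± 3.17, FOXQ1 at 30.5 ± 0.653 and CLDN7 at 16.3 ± 0.965 TPM (mean ± SD, n = 2 libraries, as throughout), and no neighbours among these 4 overlapped. MUC1 at 4.38 ± 0.335 and CLDN1 at 3.70 ± 1.31 TPM overlapped each other. ELF3 at 0.453 ± 0.0445 TPM and CDH1 at 0.062 ± 0.0877 TPM were close to the detection limit. Among genes above 0, CLDN4 lay at the 80.0th percentile, SPDEF at the 77.1th, CLDN7 at the 51.2th and CDH1 at the 6.24th. After ADAR1 siRNA the ranges of CLDN4 and SPDEF overlapped, as did those of FOXQ1 and CLDN7 and those of CLDN7 and CLDN1, and CLDN1 stood above MUC1. In control Ribo-seq the order was CLDN4, CLDN7, SPDEF, CLDN1, FOXQ1, MUC1, ELF3 and CDH1, with no overlap between neighbours, so CLDN7 and CLDN1 ranked higher and FOXQ1 lower than by RNA.

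**Figure D1:**
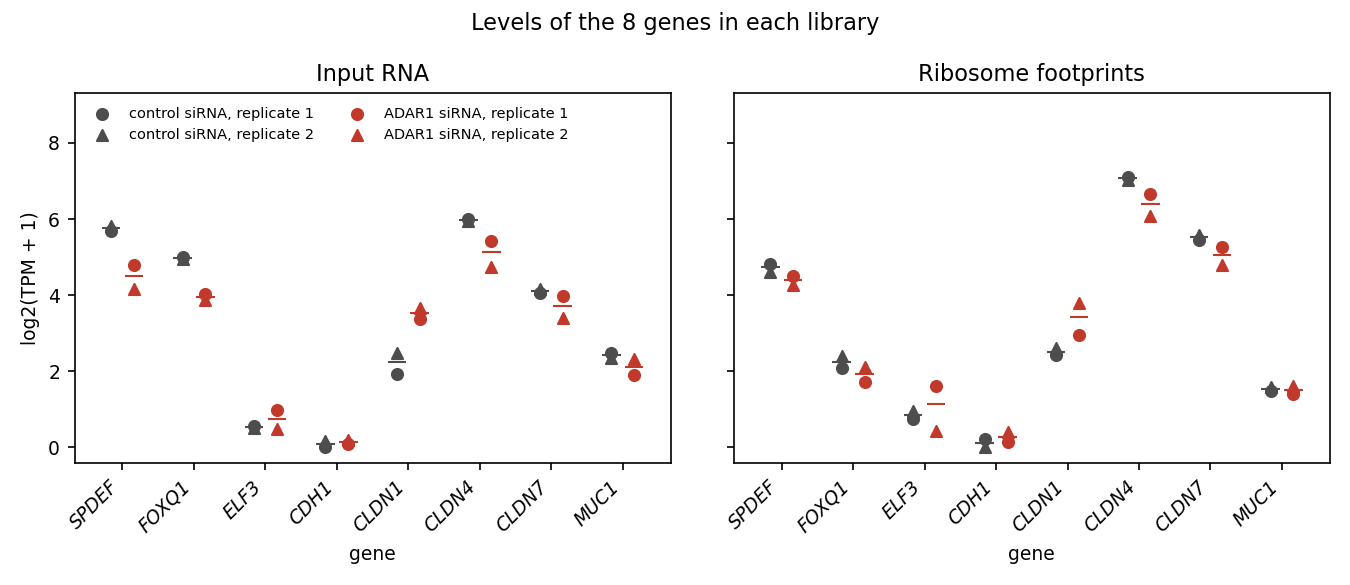
Levels of the 8 genes as log2(TPM + 1) in the 4 Input libraries (left) and the 4 Ribo-seq libraries (right); grey points are control siRNA, red points are ADAR1 siRNA, circles are replicate 1, triangles are replicate 2, and a short line marks the group's mean TPM on the same scale. In Input the red points lie below the grey ones for SPDEF, FOXQ1, CLDN4, CLDN7 and MUC1 and above them for CLDN1, while CDH1 stays near 0.

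The first comparison was RNA level after ADAR1 siRNA against control. FOXQ1 RNA fell 2.13-fold, and it was the only one of the 6 tested genes to pass the threshold; ELF3 and CDH1 had too few counts to be tested. Over all 12644 genes tested, 0.253% passed, 0.0791% higher and 0.174% lower (edgeR's quasi-likelihood test, Benjamini-Hochberg adjusted p under 0.05). SPDEF, CLDN4, CLDN7 and MUC1 had estimates below 0 and CLDN1 an estimate above 0, none of them past the threshold. At an unadjusted p under 0.05 there were 4 of the 6 (SPDEF, FOXQ1, CLDN1 and CLDN4), against 25.3% of all genes. The groups did not overlap in TPM for any of the 6, against 57.1% of all genes (29.2% higher, 27.9% lower), so separation alone is common in these libraries. The median log2 fold change was -0.68 over the 6 genes and 0.00 over all genes. Because the genes were chosen with earlier results of these data known, these counts and medians describe the set and do not test it.

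FOXQ1 (NCBI gene 94234, at 1312098 to 1314758 on chromosome 6 of GRCh38.p14, as for the loci below) measured 30.9 and 30.0 TPM in the control Input libraries and at 15.3 and 13.7 TPM after ADAR1 siRNA. Both ADAR1 siRNA libraries lay close together, at 50.1% and 44.8% of the control mean. Its log2 fold change was -1.09 ± 0.10 (SE), with an edgeR adjusted p of 0.0453, and it ranked 6th by p among all genes. Without any single library the estimate stayed between -1.13 and -1.05. The call was lost without control Input replicate 1 or replicate 2. Those fits rest on 1 control library, and the loss of calls in them was not particular to FOXQ1. With all 4 Input libraries kept, FOXQ1 passed with upper-quartile scaling, DESeq2, limma-voom and a replicate block. It also passed without a count filter, at a mean count of at least 50 and in 1 fit over all 8 libraries. Its Input counts were fractional in all 4 libraries, and the sources used here do not say how reads were divided among genes.

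SPDEF (NCBI gene 25803; chromosome 6, 34537802 to 34556329) stood at 51.0 and 55.5 TPM in control Input and at 26.9 and 16.8 TPM after ADAR1 siRNA. Both ADAR1 siRNA libraries were below both controls, replicate 2 further than replicate 1 (31.6% and 50.5% of the control mean). The log2 fold change was -1.31 ± 0.18, the lowest of the 6 genes, and the edgeR adjusted p of 0.0527 missed the threshold. It passed when genes were kept without a count filter (edgeR adjusted p = 0.0396) or at a mean count of at least 50 (edgeR adjusted p = 0.0486). It also passed with DESeq2 and with a replicate block, but not with upper-quartile scaling, limma-voom or 1 fit over all 8 libraries. Without any single library the SPDEF estimate stayed between -1.62 and -1.05. ELF3, the other ETS factor (NCBI gene 1999; chromosome 1, 202010587 to 202017183), held 8 and 8 counts in control Input and 20 and 7 after ADAR1 siRNA. Its replicates disagreed, since replicate 1 was above both controls and replicate 2 was 1 count below them.

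The 3 claudins did not share a direction. CLDN1 (NCBI gene 9076; chromosome 3, 190305707 to 190322446) stood at 2.78 and 4.63 TPM in control Input and at 9.43 and 11.6 TPM after ADAR1 siRNA, from 62 and 111 counts against 212 and 283. All ADAR1 siRNA values were above the controls, with a log2 fold change of 1.49 ± 0.26 (edgeR adjusted p = 0.0672), which put it at the 99.5th percentile of all tested genes. The estimate was 1.17 when control replicate 1 was left out and 1.91 when control replicate 2 was. CLDN4 (NCBI gene 1364; chromosome 7, 73830996 to 73832690) stood at 62.6 and 60.7 TPM in control and at 42.2 and 25.7 TPM after ADAR1 siRNA. Its groups were separate, but ADAR1 siRNA replicate 2 was much lower than replicate 1, and the log2 fold change was -0.89 ± 0.19 (edgeR adjusted p = 0.0796). The estimate was -0.60 when ADAR1 siRNA replicate 2 was left out and -1.23 when replicate 1 was. CLDN7 (NCBI gene 1366; chromosome 17, 7259903 to 7263213) stood at 15.6 and 17.0 TPM against 14.9 and 9.54 TPM. Only replicate 2 was clearly below the controls, and the log2 fold change was -0.45 ± 0.22 (edgeR adjusted p = 0.25). It was -0.20 without ADAR1 siRNA replicate 2 and -0.76 without replicate 1.

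CLDN7 shares its locus with ELP5, which had 404 to 552 counts per library. The sources used here do not give the strand setting of the counting, so reads in the shared stretch cannot be told apart. CLDN1 shares its locus with CLDN16, which held at most 2 counts in any library. For SPDEF, CLDN1, CLDN4 and CLDN7 the ADAR1 siRNA replicate further from the controls was replicate 2 in both assays, whereas ADAR was lower in replicate 1. FOXQ1 had replicate 2 further in Input (44.8% of the control mean against 50.1%) and replicate 1 further in Ribo-seq (60.4% against 87.2%). For MUC1 it was replicate 1 in Input (62.0% against 91.4%). Whether the depth of the knockdown plays a part was not tested. In bulk libraries such as these, fewer cells with a transcript and less of it per cell cannot be told apart.

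At the cell surface, MUC1 (NCBI gene 4582; chromosome 1, 155185824 to 155192915) stood at 4.62 and 4.15 TPM in control Input and at 2.72 and 4.00 TPM after ADAR1 siRNA. Replicate 2 was just under the lower control, and the log2 fold change of -0.47 ± 0.29 did not pass (edgeR adjusted p = 0.353). CDH1 (NCBI gene 999; chromosome 16, 68737292 to 68835537) held 0 and 4 counts in control Input and 2 and 5 after ADAR1 siRNA, and 6, 0, 6 and 12 counts in the corresponding Ribo-seq libraries. A count of 0 allows up to 3 counts, for counting error only, so no difference in E-cadherin RNA was detectable at this depth.

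**Figure D2:**
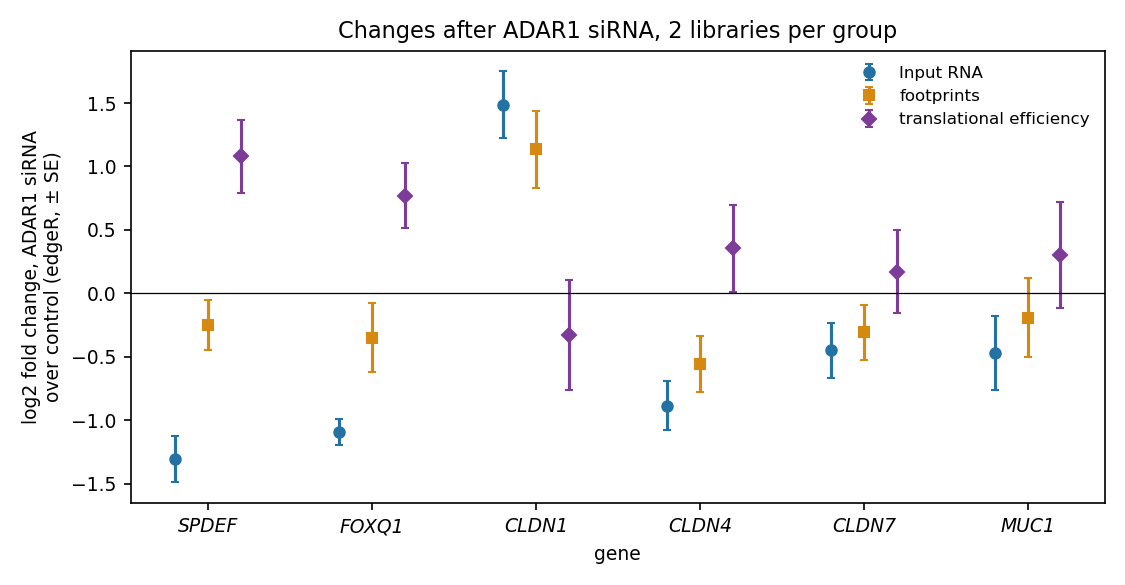
Log2 fold changes of ADAR1 siRNA over control for 6 of the genes (edgeR estimate, bars are ± 1 SE, 2 libraries per group) in Input RNA, footprints and translational efficiency, the difference of the first 2 changes tested over all 8 libraries. CLDN1 has estimates above 0 in both assays, at 1.49 and 1.13, and SPDEF has -1.31 in RNA beside -0.25 in footprints; ELF3 and CDH1 are left out for their low counts.

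The second comparison was of ribosome footprints, the ribosome-covered fragments counted for each gene over all of its messenger RNA. None of the 7 tested genes passed in edgeR, whereas 3.54% of 12000 genes did, 1.88% higher and 1.67% lower. DESeq2 and limma-voom also called 0 of the 7. CLDN1 and CLDN4 passed without a count filter (edgeR adjusted p = 0.00115 and 0.0157) and with a replicate block (edgeR adjusted p = 0.00197 and 0.0013), and CLDN1 passed in 1 fit over all 8 libraries (edgeR adjusted p = 0.0351). At an unadjusted p under 0.05 there were 2 of 7 (CLDN1 and CLDN4), near the 24% of all genes. The groups were separate in TPM for 4 of 7 (SPDEF, CLDN1, CLDN4 and CLDN7), near the 54.3% of all genes (23% higher, 31.2% lower). The median log2 fold change was -0.25 over the 7 genes and 0.05 over all genes.

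CLDN4 had the most footprints, with 136.7 and 130.4 TPM in control Ribo-seq and 100.4 and 67.2 TPM after ADAR1 siRNA. Both ADAR1 siRNA libraries were lower, replicate 2 again the lower one, and the log2 fold change was -0.56 ± 0.22 (edgeR adjusted p = 0.164). It was -0.98 without ADAR1 siRNA replicate 1 and -0.28 without replicate 2. CLDN4's counts were fractional in the 4 Ribo-seq libraries, and how those reads were divided is likewise unknown here. CLDN7 had 42.7 and 47.0 TPM against 37.6 and 26.8 TPM, and a log2 fold change of -0.31 ± 0.22 (edgeR adjusted p = 0.416). The CLDN7 estimate was -0.65 without ADAR1 siRNA replicate 1 and -0.08 without replicate 2. CLDN1 had 4.34 and 5.11 TPM in control and 6.81 and 12.9 TPM after ADAR1 siRNA. The 2 ADAR1 siRNA values were both higher but far apart, and the log2 fold change of 1.13 ± 0.30 missed the threshold (edgeR adjusted p = 0.0628). It was 1.46 without ADAR1 siRNA replicate 1 and 0.66 without replicate 2.

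Among the transcription factors, SPDEF had 27.5 and 23.5 TPM of footprints in control and 21.7 and 18.3 TPM after ADAR1 siRNA. Both ADAR1 siRNA values were below the lower control, replicate 2 further than replicate 1, with a log2 fold change of -0.25 ± 0.20 (edgeR adjusted p = 0.468). FOXQ1 had few footprints for its RNA level, 3.25 and 4.30 TPM against 2.28 and 3.29 TPM, and these groups overlapped (log2 fold change -0.35 ± 0.27, edgeR adjusted p = 0.472). ELF3 had 14 and 16 footprint counts in control and 55 and 9 after ADAR1 siRNA. One ADAR1 siRNA library was above and the other below the controls, in the same order as in Input, and the estimate went from 0.73 with all libraries to -1.14 without ADAR1 siRNA replicate 1. MUC1 had 1.79 and 2.00 TPM against 1.64 and 2.04 TPM, with overlapping groups (log2 fold change -0.19 ± 0.31, edgeR adjusted p = 0.748).

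The third comparison was translational efficiency, the footprint level for a given RNA level. In the controls the authors' deposited values spread widely over these genes. CLDN7 stood at 2.73 and 2.77, CLDN4 at 2.19 and 2.15 and CLDN1 at 1.56 and 1.10, at the 96.2th, 94.6th and 88.8th percentile of the 11010 genes that averaged 50 or more counts in control Input, whose median was 0.365. All 3 claudins thus lay in the upper range of that distribution. SPDEF at 0.539 and 0.424 and MUC1 at 0.388 and 0.482 lay near the middle, at the 61.2th and 57.1th percentile. FOXQ1 at 0.105 and 0.143 lay low, at the 14.2th percentile. ELF3 at 1.43 and 2.21 rested on 8 Input counts per library, and CDH1 had no control value in the deposited table. The scaling from counts to TPM differed between the assays, and not equally for each gene. In control replicate 1, CLDN1 held 62 counts at 2.78 TPM in Input and 51 counts at 4.34 TPM in Ribo-seq. MUC1 held 55 counts at 4.62 TPM and 46 counts at 1.79 TPM in the same libraries. The percentiles of different genes depend on that scaling.

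**Figure D3:**
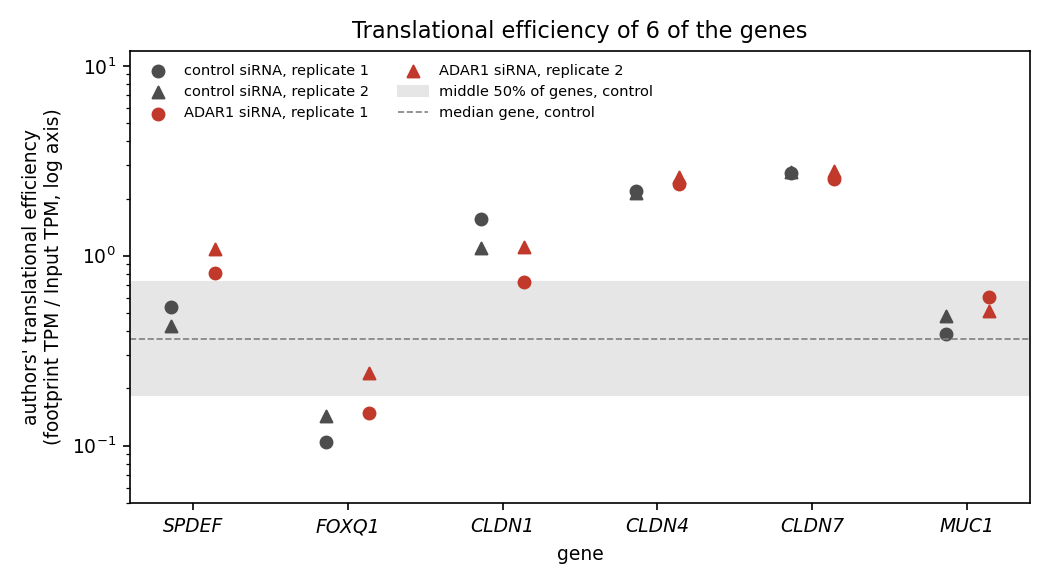
Translational efficiency as the authors deposited it (footprint TPM over Input TPM, log axis) for 6 of the genes; grey points are control siRNA, red points are ADAR1 siRNA, circles are replicate 1 and triangles replicate 2, the band runs from the lower to the upper quartile (0.186 to 0.723) of genes averaging 50 or more counts in control Input, and the dashed line is their median of 0.365. Points of CLDN4 and CLDN7 lie above 2 in every library, FOXQ1 stays under 0.25, and SPDEF is higher in both ADAR1 siRNA libraries than in either control.

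After ADAR1 siRNA no gene of the 7 tested passed for translational efficiency in edgeR, as was so for nearly all of the 12953 genes tested, of which 0.0463% passed, 0.0154% higher and 0.0309% lower. DESeq2 called 1 (SPDEF, adjusted p = 0.0135) and limma-voom 0. At an unadjusted p under 0.05 there were 2 of 7 (SPDEF and FOXQ1, both higher), against 22.7% of all genes, 13.2% higher and 9.48% lower. SPDEF went from 0.539 and 0.424 in control to 0.807 and 1.09 after ADAR1 siRNA, with separate groups and a log2 difference of 1.08 ± 0.29 (edgeR adjusted p = 0.0709). The adjusted p ranged from 0.0135 to 0.35 over the alternatives, and the estimate from 0.76 to 1.31 without any single library. FOXQ1 went from 0.105 and 0.143 to 0.149 and 0.241, with the lower ADAR1 siRNA value just above the higher control, and a log2 difference of 0.77 ± 0.26 (edgeR adjusted p = 0.114). For both of these factors the RNA estimate was further below 0 than the footprint estimate, a difference that did not pass the test. CLDN4 (2.38 and 2.61 after ADAR1 siRNA, log2 difference 0.35 ± 0.34), CLDN7 (2.52 and 2.80, 0.17 ± 0.33), MUC1 (0.605 and 0.510, 0.30 ± 0.42) and CLDN1 (0.723 and 1.11, -0.33 ± 0.43) had differences close to their standard error or below it. The median over all genes was 0.09.

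The other genes of the same systems were read from lists. Over all genes tested in edgeR, 25.3% in RNA and 24% in footprints had an unadjusted p under 0.05, and 0.253% and 3.54% passed. Of 21 other claudins, 6 were tested in RNA, where 0 passed in edgeR and 2 had an unadjusted p under 0.05, with a median log2 fold change of 0.03. CLDN3, a close relative of CLDN4, had 2.67 and 2.14 TPM in control Input and 1.08 and 0.332 TPM after ADAR1 siRNA (log2 fold change -1.79 ± 0.56, edgeR adjusted p = 0.128), while its footprints differed little (-0.10 ± 0.35). CLDN11 had 1.46 and 1.72 TPM against 3.11 and 3.03 TPM in Input (0.92 ± 0.27, edgeR adjusted p = 0.113). Its footprints rose from 2.95 and 2.38 to 5.63 and 6.94 TPM (1.35 ± 0.31, edgeR adjusted p = 0.046), the 1 of 4 other claudins tested in Ribo-seq that passed; the call was lost without control replicate 2 (edgeR adjusted p = 0.331) and with limma-voom (adjusted p = 0.0582). CLDN12, the most abundant other claudin at 55.8 TPM, had a log2 fold change of 0.01 ± 0.07 in RNA.

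Of 23 other tight junction genes, 18 were tested in RNA (0 passed in edgeR, 4 at an unadjusted p under 0.05, median -0.04) and 17 in Ribo-seq (median -0.08). F11R, the junctional adhesion molecule A, had a log2 fold change of -0.33 ± 0.10 in RNA and -0.03 ± 0.17 in footprints. Of 17 adherens junction genes, 13 were tested in each assay and 0 passed in edgeR in either, with 4 in RNA and 6 in Ribo-seq at an unadjusted p under 0.05 and medians of -0.07 and -0.22. The alpha-catenin gene CTNNA1 (-0.83 ± 0.22) and the p120-catenin gene CTNND1 (-0.81 ± 0.21) had the smallest p-values in Ribo-seq.

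Of 23 other epithelial regulators, 11 were tested in RNA and 9 in Ribo-seq; 0 passed in edgeR, 1 and 3 had an unadjusted p under 0.05, and the medians were -0.08 in both. The forkhead factor FOXA2 had 42.9 and 40.4 TPM in control Input and 32.1 and 27.3 TPM after ADAR1 siRNA (log2 fold change -0.51 ± 0.10, edgeR adjusted p = 0.0713). GRHL2 and OVOL1, regulators of epithelial identity, stood at 0.0705 TPM and 0 TPM in control Input. Of 22 mucin and other surface genes, 10 were tested in each assay: 0 passed in RNA (1 at an unadjusted p under 0.05, median 0.07) and 2 rose in Ribo-seq (median 0.47). CEACAM1, an adhesion molecule, had 0.777 and 1.10 TPM against 0.179 and 0.144 TPM in Input (log2 fold change -2.31 ± 0.60, edgeR adjusted p = 0.0941), from 2 to 17 counts per library.

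Of 14 repressors of epithelial genes, 10 were tested in RNA (0 passed in edgeR, 4 at an unadjusted p under 0.05, median -0.09) and 9 in Ribo-seq (1 rose, median 0.19). ZEB1 had a log2 fold change of 0.25 ± 0.07 in RNA (edgeR adjusted p = 0.114) and -0.25 ± 0.19 in footprints, and CTBP1, a corepressor, had -0.24 ± 0.08 and 0.44 ± 0.19. Among relatives of the factors, 16 of 25 other ETS genes and 17 of 26 other forkhead genes were tested in RNA, where 0 of either list passed in edgeR (6 and 3 at an unadjusted p under 0.05, median -0.0042 and -0.04). In Ribo-seq 0 of 17 ETS genes (3 at an unadjusted p under 0.05) and 1 of 15 forkhead genes passed, with medians of 0.05 and -0.0020. For translational efficiency 0 genes of the 8 lists passed in edgeR. At an unadjusted p under 0.05 there were 22.7% of all genes tested. In the lists there were 2 of 6 other claudins, 3 of 18 tight junction, 5 of 13 adherens junction and 1 of 11 regulator genes. There were also 2 of 11 surface, 5 of 18 ETS, 3 of 17 forkhead and 3 of 10 repressor genes.

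**Figure D4:**
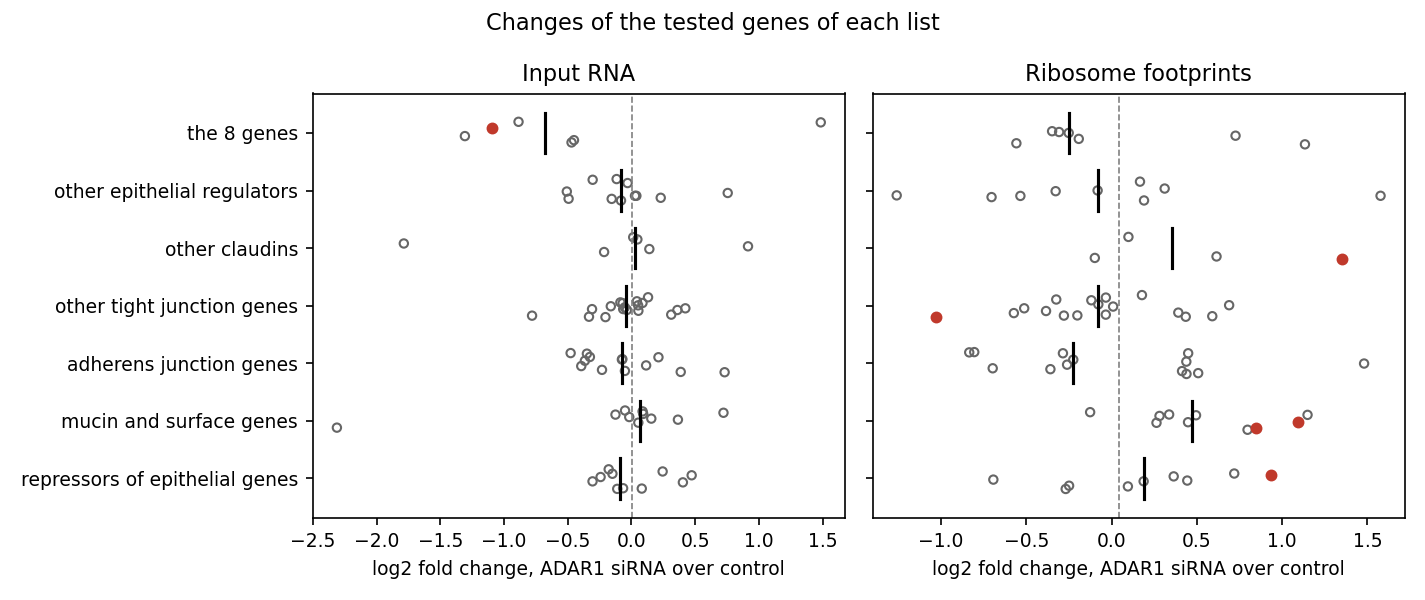
Log2 fold changes (edgeR, ADAR1 siRNA over control) of the tested genes of 7 lists in Input RNA (left) and footprints (right); each circle is a gene, filled red where the adjusted p was under 0.05, black bars are list medians and the dashed line is the median of all genes tested. In RNA the only filled point is FOXQ1, and the filled points in footprints include CLDN11, GALNT1, GALNT2 and TCF3.

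The genes whose pattern over the libraries was most like that of each of the 5 well-counted genes were found by Pearson correlation of log2(TPM + 1) over the 8 libraries, after subtracting each assay's mean, among 9735 other genes averaging 50 or more counts in both assays. These values describe 8 libraries in which the siRNA difference and the replicate spread both enter. The partners named are the highest of 9735 correlations for each gene, so high values come in part from that selection and were not tested. SPDEF was closest to ABCA3 (0.999), a lipid transporter gene, and to F11R (0.983). FOXQ1 was closest to SHARPIN (0.988) and ADRM1 (0.987), CLDN1 to MUSK (0.989) and AAMDC (0.984), CLDN4 to STING1 (0.987) and SLC4A11 (0.987), and CLDN7 to ACOX2 (0.987) and LRATD2 (0.987). With a pseudocount of 0.1 in place of 1, FOXQ1 was closest to ADRM1 (0.996) and PHKG2 (0.990) and CLDN4 to SLC4A11 (0.993) and then STING1 (0.988), while the pairs for SPDEF, CLDN1 and CLDN7 were as above. Between the genes themselves the value was highest for CLDN4 with CLDN7 (0.952), was 0.905 for CLDN4 with SPDEF and 0.858 for SPDEF with FOXQ1, and was lowest for CLDN1 with CLDN4 (-0.938).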

How the data were processed

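Values came from 1 deposited table of MDA-MB-231 libraries, with all of its columns used. Per the submitters' processing notes, cutadapt, Bowtie2, STAR and featureCounts were used on GRCh38 (hg38); the sources used here do not give versions, roles or the strand setting. Per the file headers, the authors deposited estimated counts (87.0% to 90.1% whole numbers per library), TPM, and translational efficiency, a ratio of Ribo-seq TPM to Input TPM of the same siRNA and replicate number. Gene numbers were matched to RefSeq symbols for 19669 of 19892 genes.

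Counts were rounded and fitted over the whole table with edgeR 4.0.16 in R 4.3.3 (TMM scaling, filterByExpr, quasi-likelihood test, two-sided, Benjamini-Hochberg adjustment at 0.05): the 4 Input libraries, the 4 Ribo-seq libraries, and, for translational efficiency, the interaction of assay and siRNA over all 8. SE is the estimate's size over the square root of F. Alternatives used DESeq2 1.42.0, limma 3.58.1 (voom), other filters and scaling, a replicate block and single libraries left out; the scripts were tested on simulated data. With 2 against 2 libraries an exact permutation test cannot give a two-sided p under 0.333. The genes and the 13 other lists (8 of related genes, 5 of cell type markers) were chosen with earlier results of these data known. Besides the 8 genes, the rule names each list's genes that passed and its 2 of smallest p in each comparison, of which some are given, and the 2 genes most alike in pattern; CLDN12, GRHL2, OVOL1 and the marker genes given as levels were named after their values were seen. The footprint call of 1 listed gene is not reported here.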

Additional observations from a re-analysis of the deposited data

How the results depend on the processing

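In RNA, 32 genes and 1 of the epithelial genes passed. With upper-quartile scaling these were 11 and 1, with DESeq2 449 and 3, without a count filter 95 and 2, among genes averaging 50 or more counts 73 and 2, and in 1 fit over all 8 libraries 14 and 1. Leaving out 1 library, where the lone library of a group is assumed to vary like the other pair, gave 0 to 5420 genes and 0 to 5 of the epithelial genes. In Ribo-seq, 425 and 0 passed, against 978 and 0 with DESeq2, 1693 and 2 without a filter, 250 and 0 with limma-voom, 1936 and 1 in the joint fit, and 77 to 3415 and 0 to 3 with 1 library left out. For translational efficiency, 6 and 0 passed, against 982 and 1 with DESeq2, 854 and 1 without a filter, 2 and 0 among genes averaging 50 or more counts, 0 by limma-voom (2885 genes at an unadjusted p under 0.05), and 0 to 2252 and 0 to 1 with 1 library left out. The split of calls in RNA was 10 higher and 22 lower, and 5 and 6 with upper-quartile scaling; in Ribo-seq it was 225 and 200, and 311 and 176 with upper-quartile scaling and 391 and 587 with DESeq2. The cause of these shifts was not tested.

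With a replicate block, 1095 genes and 4 of the epithelial genes passed in RNA (CLDN1, CLDN4, FOXQ1 and SPDEF), 2102 and 2 in Ribo-seq (CLDN1 and CLDN4), and 715 and 1 for translational efficiency (SPDEF). The labels do not say what a replicate number marks. Deviations of same-numbered libraries had a correlation across genes of 0.036 between control and ADAR1 siRNA in Input and 0.153 in Ribo-seq, and, between Input and Ribo-seq, of 0.00596 for control and 0.42 for ADAR1 siRNA, so same-numbered ADAR1 siRNA libraries deviated together across the assays that the fit of translational efficiency joins.

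The RNA estimates of all 6 tested genes kept their sign in every alternative. The signs that turned were those of ELF3 in footprints (-1.14 to 1.48 with 1 library left out) and, for translational efficiency, those of ELF3 (-0.16 with the replicate block, -0.32 by limma-voom, -1.85 to 0.90 with 1 library left out), MUC1 (-0.021 to 0.54), CLDN4 (-0.085 to 0.69) and CLDN7 (-0.19 to 0.46). Counts were lowest for CDH1 (0 to 12 per library) and ELF3 (7 to 55).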

Other observations

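Some genes outside the epithelial set passed in footprints and not in RNA. GALNT1 and GALNT2, whose enzymes start the O-linked sugar chains carried by mucins such as MUC1, had footprints that rose from 11.2 and 11.8 to 24.2 and 21.6 TPM (log2 fold change 1.09 ± 0.18, edgeR adjusted p = 0.0278) and from 41.8 and 41.5 to 68.6 and 71.6 TPM (0.85 ± 0.14, edgeR adjusted p = 0.0334). In Input the same estimates were 0.09 ± 0.13 and 0.09 ± 0.07. The difference between assays was 1.03 ± 0.22 for GALNT1 and 0.78 ± 0.15 for GALNT2 and did not pass in edgeR (adjusted p = 0.0561 and 0.0534). TCF3, an E-protein listed among the repressors of CDH1, had footprints of 4.58 and 3.87 TPM in control that rose to 7.995 and 7.39 TPM (0.93 ± 0.20, edgeR adjusted p = 0.0429), beside -0.18 ± 0.07 in RNA, and the forkhead gene FOXP4 rose from 10.6 and 9.13 to 14.6 and 17.0 TPM (0.77 ± 0.17, edgeR adjusted p = 0.0443), beside -0.16 ± 0.08. Their difference between assays was 1.13 ± 0.20 and 0.95 ± 0.17 and did not pass in edgeR (adjusted p = 0.0534 for each). All 4 footprint calls were lost without control Ribo-seq replicate 2 (adjusted p from 0.0633 for GALNT1 to 0.518 for FOXP4), and those of GALNT2 and FOXP4 also without control replicate 1.

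Of 10 luminal and receptor genes tested in footprints, 2 keratins of simple epithelia passed. Estimates were above 0 for 5 of the 10 and below 0 for 5, with a median log2 fold change of -0.02. KRT19 footprints fell from 290.1 and 354.9 to 133.3 and 173.3 TPM (log2 fold change -0.99 ± 0.15, edgeR adjusted p = 0.0261), and KRT8 footprints fell as well (-0.96 ± 0.21, edgeR adjusted p = 0.0443). In RNA, KRT19 had -0.63 ± 0.09 (edgeR adjusted p = 0.0582) and KRT8 -0.20 ± 0.09 (0.233). Both footprint calls were lost without control Ribo-seq replicate 2 (edgeR adjusted p = 0.183 and 0.258). The mesenchymal gene COL5A1 had footprints that rose from 9.28 and 9.40 to 15.1 and 29.0 TPM (1.29 ± 0.23, edgeR adjusted p = 0.0336). Its estimate was 0.81 without ADAR1 siRNA Ribo-seq replicate 2, and 0.35 ± 0.24 in RNA. Of 15 mesenchymal genes tested in footprints, 12 had estimates above 0 and 3 below 0. VIM had footprints of 1882 and 2275 TPM in control and 831 and 1473 TPM after ADAR1 siRNA. A shift between epithelial and mesenchymal character was not tested. Of 5 fibroblast markers tested in footprints, 2 had estimates above 0 and 3 below 0, with a median log2 fold change of -0.28. PDGFRB rose from 0.833 and 0.579 to 1.39 and 1.70 TPM (1.22 ± 0.28, edgeR adjusted p = 0.0485). That call was lost without control Ribo-seq replicate 2 and with limma-voom (adjusted p = 0.0588). With 1 library left out the PDGFRB estimate ran from 1.01 to 1.47. ACTA2, second by p in this list, had a log2 fold change of -0.74 ± 0.37 (edgeR adjusted p = 0.25).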
